A study of Mus musculus with 24 samples.

Results

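Macrophages isolated from the tumours of naive mice, called TAM naive in the labels, were set against bone marrow macrophages cultured towards an M2 state, on 7 of the 24 arrays of the series. The arrays were chosen by their labels alone: TAM naive replicates 1, 3 and 4 and M2 replicates 1 to 4. Each scanner file was taken for the sample it is recorded under, although most columns of the deposited value table match the scanner file of another sample, and the files do not settle which of the sources is labelled rightly. All animals were C57BL/6 male mice aged 10 weeks, labelled naive for sepsis, and the labels give no altered allele. TAM naive samples were taken from a tumour that the labels do not name, enriched on a Percoll step gradient (70/30) and then by 1 hour of adhesion, a purification that uses no macrophage marker. M2 samples were progenitors from the marrow of naive mice, selected by adhesion and grown for 7 days in medium with 20% supernatant of L929 cells, a source of the growth factor M-CSF, and 10% serum, with IL-10 added at 20 ng/mL on the third day. TAM naive replicate 2, marked as excluded by the submitters, is not in the comparison; its 75th percentile of signal was 49.2 against 269.9 to 635.3 on the 7 arrays, and putting it back left 6296 called genes. The series text describes 3 separate experiments for the tumour cells and fewer for the cultures, with the samples of best RNA absorbance ratios kept, and which array came from which experiment is not given.

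A macrophage depends on the receptor for M-CSF and carries a common set of lineage genes wherever it lives, among them the surface receptor gene Adgre1, the lysosomal protein CD68 and lysozyme (Lyz2). Cytokines then change its programme: IL-4 and IL-13 induce arginase, chitinase-like proteins and the mannose receptor, the set called alternative activation, whereas IL-10 acts through STAT3 and restrains inflammatory genes. In tumours, macrophages are thought to share features with M2 cultures, and the comparison asks how far the profile of the tumour isolates resembles the cultured state. Levels below are log2 spot signals minus the 75th percentile of the same array, so a level of 0 is a bright spot, and a difference is TAM naive minus M2 on that scale. A gene was called where the adjusted p of limma's moderated test was 0.05 or lower.

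In this comparison 11691 of 29776 genes were called, 39.3% of those tested, with 5690 (19.1%) higher and 6001 (20.2%) lower in TAM naive. These shares, 19.1% and 20.2%, are the background for every list count below. Among the calls, 2134 differed by 8-fold or more. The values of 46.1% of genes did not overlap between the groups, and 11655 of the called genes had the same sign on each of the 3 slides. Arrays correlated at 0.962 to 0.973 within TAM naive, at 0.951 to 0.985 within M2 and at 0.758 to 0.865 between the groups (Pearson's r over the genes tested). Between 58.3% and 70% of spots were well above background on these arrays, and no spot was saturated. The median difference of all genes was 0.14; centring arrays on their medians moved it by -0.45, so that 29.7% of calls were higher in TAM naive in place of 48.7%.

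The label "tumour-associated macrophage" was checked against lineage genes, and the data went against it in part. Of 18 macrophage identity genes, 15 fell in TAM naive with a list median of -4.75, against 20.2% of all genes lower and a median of 0.14 over all genes. The lineage genes were still detected: 17 of the 18 were well above background on all 3 TAM naive arrays. Genes of pigment cells, red cells and fibroblasts, by contrast, were among the largest differences in the other direction, and they are described first. In bulk RNA, fewer cells of a type and less RNA per cell cannot be told apart.

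**Figure D1:**
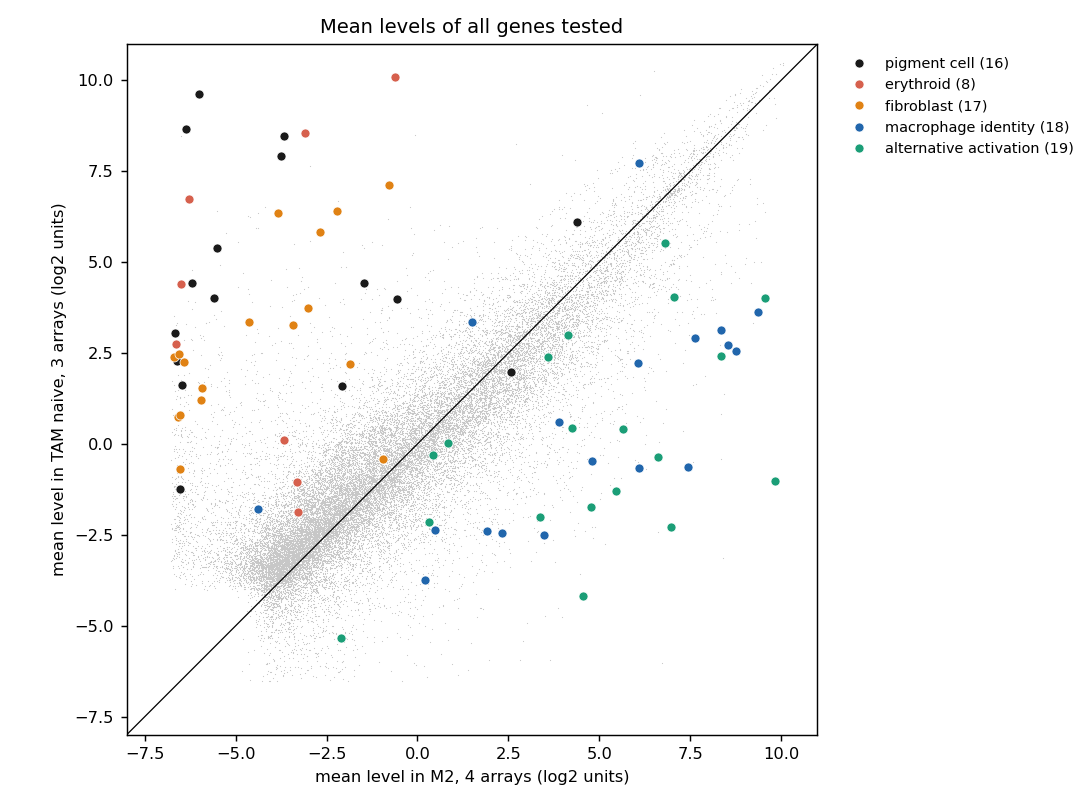
Mean level in TAM naive (vertical axis, 3 arrays) against mean level in M2 (horizontal axis, 4 arrays) in log2 units relative to each array's 75th percentile, for every gene tested (grey) and 5 gene lists (coloured, number of genes in brackets); the line marks equal levels. The erythroid and fibroblast genes and 15 of the 16 pigment cell genes lie above the line, 15 of the 18 macrophage identity genes and the 19 alternative activation genes below it.

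Pigment cell genes gave some of the largest differences of the comparison. Of 16 genes of melanocytes and melanoma, 15 rose in TAM naive, with a list median of 9.24. Dct (dopachrome tautomerase, a melanin synthesis enzyme) had levels of 9.62, 9.47 and 9.76 in TAM naive replicates 1, 3 and 4, and was well above background on no M2 array. That made it at least 19270-fold higher (adjusted p = 2.93e-06). Such a bound sets the mean of the bright group against a floor for each array of the dim group. That floor is the lowest signal called well above background on the array, or the gene's own signal there if higher. Tyrp1 (a second enzyme of the melanin pathway) was at 8.52, 8.54 and 8.91 in TAM naive, on no M2 array above background, and at least 10110-fold higher (adjusted p = 2.74e-07). The TAM naive arrays lay close together for both enzymes, and no M2 array came near them.

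The remaining pigment genes gave the same picture. Pmel, which builds the fibrils on which melanin is laid down, differed by 12.15 ± 0.27 (SE; 3 and 4 arrays; adjusted p = 2.74e-07), and Mlana, a melanosome protein above background on 3 of 4 M2 arrays, by 11.66 ± 0.38 (adjusted p = 7.31e-07). Slc45a2, a melanosomal transporter, was at least 1045-fold, Mc1r, the melanocortin receptor, at least 534-fold and Oca2, another melanosomal transporter, at least 76.7-fold higher. Tyr (tyrosinase) rose by 3.65 ± 0.41 (adjusted p = 0.000238). Mitf, the transcription factor of the pigment lineage, which macrophages also express, rose by 1.72, from 4.20 to 4.54 in M2 to between 5.75 and 6.56 in TAM naive; it was picked after its values were seen and was not called with the excluded replicate 2 put back (0.65, adjusted p = 0.599). Trpm1, picked likewise, was the one member not called with its brightest probe (-0.58, adjusted p = 0.163), whereas 3 of its 4 probes were higher and their median was 6.57 (adjusted p = 8.75e-05).

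Bases just before the start of 3 of these genes are shown because their products moved together and because the letters TCATGTG, an element called the M-box that pigment gene promoters are known for, can be seen in them. The windows are the 250 bases upstream of the RefSeq start in GRCm38.p6, 5′ to 3′ along the gene, with the element in capitals on either strand (CACATGA is its reverse complement). They lie at chr4:80833963-80834212 on the plus strand for Tyrp1, chr14:118052247-118052496 on the minus strand for Dct and chr8:123406832-123407081 on the plus strand for Mc1r.
Tyrp1: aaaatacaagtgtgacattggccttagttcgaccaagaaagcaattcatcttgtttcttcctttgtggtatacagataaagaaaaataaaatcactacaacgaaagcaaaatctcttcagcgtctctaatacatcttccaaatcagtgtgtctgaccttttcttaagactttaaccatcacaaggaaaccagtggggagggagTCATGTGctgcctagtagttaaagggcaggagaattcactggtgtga
Dct: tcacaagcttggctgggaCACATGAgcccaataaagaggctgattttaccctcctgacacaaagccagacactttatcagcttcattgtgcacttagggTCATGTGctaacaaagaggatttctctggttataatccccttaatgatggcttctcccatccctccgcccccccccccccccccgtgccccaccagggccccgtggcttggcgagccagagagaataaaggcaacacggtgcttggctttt
Mc1r: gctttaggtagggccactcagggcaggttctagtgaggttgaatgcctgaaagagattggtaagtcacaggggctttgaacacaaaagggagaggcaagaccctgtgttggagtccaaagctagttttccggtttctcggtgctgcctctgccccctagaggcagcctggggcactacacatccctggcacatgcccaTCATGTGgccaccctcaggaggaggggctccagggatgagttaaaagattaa
The search did not cover every gene: 10 of the 16 pigment list genes had a window in it. The element was found in 6 of 13 windows of those 10 genes (46.2%), and in 1068 of the 32851 windows searched, of 27025 genes (3.25%). Those 6 genes were Dct, Mc1r, Slc24a5, Trpm1, Tyr and Tyrp1. None of the 12 windows of macrophage identity genes held it. A match describes letters and says nothing of binding.

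Globin and other red cell genes rose next. All 8 erythroid genes tested rose (list median 10.04), and 4 more of the list were below the signal filter. The 8 were above background on all 3 TAM naive arrays and 3 of them on no M2 array, so members could pass through TAM naive alone. With no filter the list median was 3.01. Hba-a1 (alpha globin) was at 9.07, 8.17 and 8.38 in TAM naive and between -3.86 and -2.24 in M2, a difference of 11.63 ± 0.41 (adjusted p = 1e-06). Hba-a2 differed by 10.71 ± 0.35 and could share signal with Hba-a1, since the genes are near-identical. Hbb-bt, a beta globin gene, was at least 8952-fold, Hbb-b2 at least 2670-fold and Hbb-b1 at least 529-fold higher, with the same reservation. TAM naive replicate 1 was the highest of its group for Hba-a1, Hba-a2, Hbb-bt and Hbb-b2.

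Fibroblast and stromal genes followed, with 16 of 17 called, all of them higher, and a median of 7.47; Bgn (biglycan), picked after its values were seen, was the exception (0.51, adjusted p = 0.51). Col3a1 (collagen type III) was at 5.37, 7.70 and 5.95 in TAM naive and between -4.27 and -3.23 in M2, above background on 2 of 4 arrays there, a difference of 10.16 ± 0.54 (adjusted p = 4.66e-06). Dcn (decorin) differed by 8.50 ± 0.41, Col1a2 by 7.88 ± 0.45 and Col1a1 by 8.62 ± 0.78, the last being scattered in M2 as well, from -3.34 to -0.93. Fap, a protease of activated fibroblasts, was at least 43.1-fold higher. Replicate 3 stood above replicates 1 and 4 for Col3a1, Dcn, Col1a1, Col1a2 and Fap, and the mean of the whole list was 4.03 there against 2.08 and 2.46. Without replicate 3 the same number of the list's genes, 16, was called higher.

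Vessel genes were fewer and smaller. Of 12 endothelial genes tested, 9 rose (median 3.67): Esam, a junction adhesion molecule, was at least 51.5-fold, Tie1, a receptor of endothelium, at least 8.41-fold higher, Cdh5 (VE-cadherin, above background on 2 of 4 M2 arrays) differed by 5.39 ± 0.37 and Plvap, a protein of fenestrated vessels, by 4.71 ± 0.32. Pecam1 (CD31), which macrophages share, was not called (0.54, adjusted p = 0.0684); it passed without TAM naive replicate 4 (0.63, adjusted p = 0.0488). Vwf (von Willebrand factor), picked after its values were seen, fell by 2.30. The summed level of the list was 5.37 to 6.06 on the TAM naive arrays and 5.64 to 5.99 on the M2 arrays. Of 9 keratinocyte genes tested, most were not called; Perp, a desmosome protein, was at least 5.65-fold higher, and Cdh1 (E-cadherin) fell by 1.91. Krt10, above background on 2 of 3 TAM naive arrays, fell by 2.05 with its brightest probe, but not over the median of its probes (-1.0, adjusted p = 0.462). The sign of the list's median (0.22) changed within 5 of the slides or other settings, among them the fit without replicate 3 (-0.10).

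Genes of lymphocytes and mast cells were higher too. Of 17 T and NK cell genes tested, 11 rose (median 2.47), with Cd3d, a chain of the T cell receptor complex above background on 2 of 4 M2 arrays, differing by 4.10 ± 0.38, Lck, its kinase, by 2.76 ± 0.26, and Gzmb (granzyme B) at least 7.93-fold higher; Cd3e was not called (0.87, adjusted p = 0.078), and without M2 replicate 4 it was (1.09, adjusted p = 0.0359), as it was with the replicate number as a block (0.87, adjusted p = 0.0461). Of 13 B cell genes, 9 rose (median 2.64): Jchain, which joins secreted antibody, was at least 41.3-fold higher, and Pou2af1, a B cell coactivator above background on 1 of 4 M2 arrays, and Cd79a, a chain of the B cell receptor complex, rose by 5.28 and 2.64, while Blnk, a signalling adaptor that M2 arrays held at 6.18 to 6.68, fell by 4.36. The summed levels of both lists, which a few bright genes set, were not higher: 4.34 to 5.17 in TAM naive against 5.61 to 5.91 in M2 for T and NK cell genes, and 4.66 to 6.21 against 6.33 to 6.74 for B cell genes. The B cell genes depended on the array: Cd79a was at 3.23 in replicate 3 and at 0.61 and 1.38 in replicates 1 and 4. Of 11 mast cell, basophil and eosinophil genes tested, 6 rose, 1 fell and 4 were not called, and 6 more were below the signal filter. All 11 were above background on the 3 TAM naive arrays, and 3 of them on no M2 array. The list median was 2.96, and 0.97 with no filter. Among those that rose were Hdc, which makes histamine (at least 199-fold), and Cpa3 (at least 19.7-fold). The receptor gene Kit rose by 6.01 ± 0.30 and the protease gene Mcpt4 by 6.38 ± 0.48. Kit and Mcpt4 were above background on 1 of 4 M2 arrays, so these sizes rest mostly on background signal there.

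Other genes with the largest differences in this direction were Ptgds (prostaglandin D synthase, 10.62 ± 0.29), Serpinh1 (a collagen chaperone, 10.83 ± 0.27), Bace2 (an aspartic protease, 11.05 ± 0.59), Car6 (a secreted carbonic anhydrase, 10.37 ± 0.37) and Gsta2 (a glutathione transferase, 10.32 ± 0.27). Sparcl1, a secreted matrix protein, was at least 1918-fold higher. These 6 genes were above background on all 3 TAM naive arrays and lay between 5.57 and 7.87 there, whereas in M2 Gsta2 and Bace2 were above background on 1 of 4 arrays, Car6 and Serpinh1 on 2, and Sparcl1 on none.

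**Figure D2:**
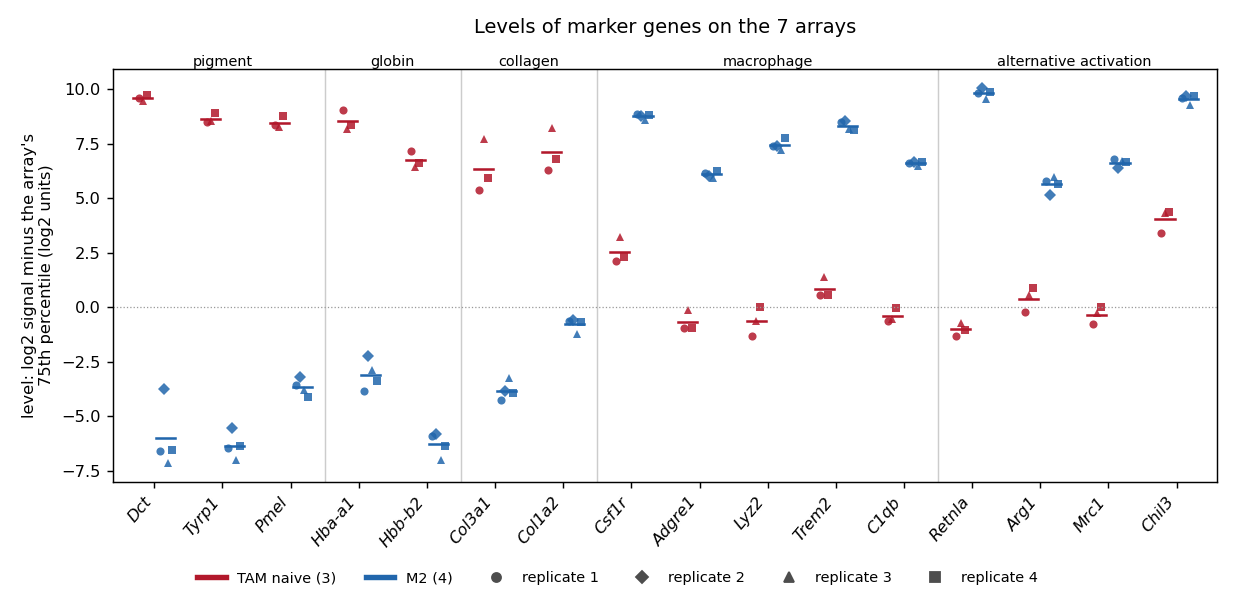
Level (vertical axis, log2 signal minus the array's 75th percentile) of 16 genes on the 3 TAM naive arrays (red) and the 4 M2 arrays (blue); symbols give the replicate and bars the group mean. Pigment, globin and collagen genes are high in TAM naive, macrophage and alternative activation genes in M2, with no overlap for any of the 16; TAM naive replicate 3 is the highest of its group for Col3a1, Col1a2 and Csf1r.

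Macrophage lineage genes were lower in TAM naive, though present. Csf1r, the M-CSF receptor, was at 2.11, 3.24 and 2.30 in TAM naive replicates 1, 3 and 4, and at 8.85, 8.79, 8.57 and 8.84 on the 4 M2 arrays. The difference was -6.21 ± 0.30 (74.2-fold; adjusted p = 3.07e-06), and the groups were far apart. Adgre1 was at -0.95, -0.11 and -0.93 against 5.95 to 6.25, a difference of -6.76 ± 0.26 (adjusted p = 1.41e-06). Cd68 fell by 5.84 ± 0.27, Lyz2 by 8.09 ± 0.33 and Cebpa, a transcription factor of the myeloid line, by 5.98 ± 0.21. Replicate 3 had the highest Csf1r, Adgre1 and Cd68 of the TAM naive arrays.

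Of the same list, 3 genes were called higher with their brightest probe. Cx3cr1, the fractalkine receptor, above background on 2 of 4 M2 arrays, rose by 2.60 (adjusted p = 0.00125), and Cd14, the endotoxin co-receptor, by 1.85 (adjusted p = 0.0166); both were picked after their values were seen, and the call of Cd14 was lost with the excluded replicate 2 put back (0.90, adjusted p = 0.457). Itgam (CD11b) rose by 1.61 with its brightest probe (adjusted p = 0.0221), but its probes disagreed: of 3, 1 was called higher and 2 lower, with differences from -4.09 to 1.61 and a median of -1.14 (adjusted p = 0.00718). Its call also went without TAM naive replicate 1 (1.25, adjusted p = 0.0884). No direction is therefore given for Itgam. Among 42 named genes with more than 1 probe it was the only one with calls in both directions.

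Complement and clearance genes followed the lineage genes. Of 23 tested, 15 fell (median -3.62), among them the subunits of C1q, the first component of the classical pathway: C1qa by 5.98 ± 0.24, C1qb by 7.01 ± 0.21 and C1qc by 6.97 ± 0.25. C1qb was at -0.62, -0.52 and -0.06 in TAM naive and between 6.50 and 6.67 in M2. Msr1 (a scavenger receptor) fell by 5.05 and Cd36, which takes up lipids and dying cells, by 5.77. Cfb (complement factor B), picked after its values were seen, rose by 4.22, with its highest level in replicate 3 (3.03 against 0.36 and 1.32).

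Of 22 genes that tumour macrophages are known to make, 12 fell and 4 rose (median -1.04), against 20.2% of all genes lower and 19.1% higher. The part of the list that rose was thus near the share of all genes. Trem2, a receptor for lipids, was at 0.58, 1.38 and 0.54 against 8.14 to 8.55 in M2 and differed by -7.51 ± 0.27 (adjusted p = 1.04e-06). Spp1 (osteopontin) fell by 6.03 ± 0.35, Mmp12 (macrophage elastase) by 8.03 ± 0.30 and Gpnmb by 2.56 ± 0.27. Gpnmb is also a pigment cell gene and had levels of 6.52, 6.42 and 7.38 in TAM naive. Apoe was at 6.01, 6.28 and 6.66 against 6.89 to 7.12, a difference of -0.67 whose call (adjusted p = 0.043) was lost without TAM naive replicate 1 or 3 or any one M2 replicate (-0.70 to -0.52, adjusted p = 0.0705 to 0.114) with the replicate number as a block (-0.69, adjusted p = 0.0981) and with the excluded replicate 2 put back (-1.5, adjusted p = 0.16). Vegfa, the vessel growth factor, rose by 1.68 ± 0.25 and Thbs1 (thrombospondin, picked after its values were seen) by 3.67, and neither was called with the excluded replicate 2 put back (0.87, adjusted p = 0.388, and 2.56, adjusted p = 0.089); Fn1 was not called (-0.92, adjusted p = 0.128), and without replicate 3 it was lower (-1.5, adjusted p = 0.00333).

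Markers of tissue-resident macrophages split. Of 15 tested, 12 fell (median -3.28): Igf1 by 8.07 ± 0.35, Pf4 by 4.47 ± 0.26 and Folr2, the folate receptor, by 4.55 ± 0.23. Lyve1, which lymphatic vessels also carry, was at least 2.63-fold higher (adjusted p = 0.000408), from -2.76 to -3.76 in TAM naive. F13a1 (coagulation factor XIII, picked after its values were seen) rose by 2.76. Cd163, the haemoglobin scavenger receptor, was below the signal filter and was not tested. Of 15 inflammatory monocyte genes, 5 rose, 2 fell and 8 were not called. Plac8 rose by 6.06 with its brightest probe and by 3.42 over the median of its probes (adjusted p = 0.206), and Ly6c1, which vessels also express, rose by 4.38. The sign of the list's median (0.08) changed within 4 of the slides or other settings, among them the fit without replicate 3 (-0.07).

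Alternative activation genes were lower in TAM naive without exception among the called ones: 17 of 19 fell, none rose, and the median was -5.26. Retnla (FIZZ1, a secreted protein induced by IL-4) was at -1.30, -0.70 and -1.07 in TAM naive and at 9.85, 10.06, 9.55 and 9.88 in M2, the largest fall among named genes above background in both groups (-10.86 ± 0.23; adjusted p = 2.74e-07). Chil3 (Ym1, a chitinase-like protein) was at 3.38, 4.32 and 4.38 against 9.30 to 9.69, a difference of -5.54 ± 0.29. Arg1 (arginase) was at -0.23, 0.54 and 0.89 against 5.17 to 5.99, a difference of -5.26 ± 0.33. Mrc1 (the mannose receptor) fell by 6.98 ± 0.25, Chil4, above background on 1 of 3 TAM naive arrays, by 8.73 ± 0.32, Rnase2a (an eosinophil-type ribonuclease) by 9.28 ± 0.22 and Ccl24 (eotaxin 2) by 6.51 ± 0.26. The remaining pair, Tgm2 (-1.14, adjusted p = 0.0627) and Irf4 (-0.81, adjusted p = 0.123), picked after their values were seen, were called lower without TAM naive replicate 3 (-1.68, adjusted p = 0.0029, and -1.30, adjusted p = 0.00549), and Tgm2 with the replicate block (-1.20, adjusted p = 0.0173). Tgm2 had 2 probes, with differences of -1.36 and -1.14, and 1 of them was called lower in a fit of all probes.

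Upstream windows of 3 genes that were high in M2 are shown for the letters AGGAAGT, the core bound by ETS factors such as PU.1, the master regulator of macrophages (ACTTCCT is its reverse complement). They lie at chr16:48842359-48842608 on the plus strand for Retnla, chr3:106167565-106167814 on the minus strand for Chil3 and chr10:117282273-117282522 on the minus strand for Lyz2 in GRCm38.p6, each of 250 bases and 5′ to 3′ along the gene, with the letters in capitals.
Retnla: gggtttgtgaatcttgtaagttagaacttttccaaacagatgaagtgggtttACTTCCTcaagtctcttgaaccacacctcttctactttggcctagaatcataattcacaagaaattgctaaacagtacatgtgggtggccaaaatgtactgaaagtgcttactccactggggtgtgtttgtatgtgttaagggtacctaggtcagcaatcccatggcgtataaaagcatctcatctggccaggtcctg
Chil3: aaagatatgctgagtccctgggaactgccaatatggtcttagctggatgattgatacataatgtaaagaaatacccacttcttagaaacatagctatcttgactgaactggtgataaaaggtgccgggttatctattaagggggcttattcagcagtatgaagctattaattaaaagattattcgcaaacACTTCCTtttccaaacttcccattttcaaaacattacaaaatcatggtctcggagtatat
Lyz2: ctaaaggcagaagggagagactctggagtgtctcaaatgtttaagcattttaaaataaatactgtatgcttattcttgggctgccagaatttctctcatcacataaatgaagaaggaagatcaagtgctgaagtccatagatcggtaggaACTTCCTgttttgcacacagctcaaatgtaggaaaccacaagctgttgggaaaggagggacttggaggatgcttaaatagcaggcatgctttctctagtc
The letters occurred in 6 of 14 windows of the 13 alternative activation genes with a window in the search (42.9%). They occurred in 2 of 12 windows of macrophage identity genes (16.7%), and in 2525 of the 32851 windows searched (7.69%). The alternative activation genes that held them were Chil3, Chil4, Flt1, Mgl2, Mrc1 and Retnla.

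The culture was made with IL-10, so its response genes were read separately. Of 20 IL-10 and STAT3 response genes tested, 12 were lower and 5 higher in TAM naive (median -1.48). Il7r fell by 6.42 ± 0.29, Tnfaip8l2, a brake on immune receptors, by 5.47 ± 0.30, and Fcgr2b, the inhibitory Fc receptor, by 5.40 ± 0.32. Socs3, the feedback inhibitor that IL-10 induces, was in contrast higher in TAM naive, at 3.43, 4.81 and 3.29 against 0.54 to 0.78 in M2 (3.20 ± 0.37; adjusted p = 0.000268). Bcl3 fell by 1.34 (adjusted p = 0.0147), a call lost without TAM naive replicate 1 (-1.14, adjusted p = 0.0598). Il10 itself, above background on 3 of 4 M2 arrays, rose by 2.71 ± 0.26, and its receptor gene Il10ra fell by 1.73 ± 0.34. Il4ra was not called (-0.63, adjusted p = 0.218) and was lower without replicate 3 (-1.11, adjusted p = 0.0127). Cxcl13 (at least 33.5-fold), Ddit4 (3.72) and Il1rn (1.88) were also higher and were picked after their values were seen.

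Levels in the other cultures describe what sets the M2 arrays apart. Retnla was at 9.84 ± 0.21 in M2 (SD, n = 4) and at 1.39 ± 0.34 in untreated naive marrow macrophages, called M0 naive (n = 4). Arg1 was at 5.66 ± 0.35 and -5.07 ± 0.77, Pdcd1lg2 (PD-L2) at 3.38 ± 0.16 and -2.45 ± 0.34, and Ccl24 at 4.78 ± 0.19 and -2.95 ± 0.26. Genes of the IL-10 and STAT3 response list lay on both sides. Socs3 was at 0.64 ± 0.12 in M2 and at 1.44 ± 0.30 in M0 naive, and Bcl3 at 3.34 ± 0.10 and 4.03 ± 0.22. Tnfaip8l2 was likewise at 3.42 ± 0.14 and 3.80 ± 0.28. In contrast, Fcgr2b was at 5.09 ± 0.31 in M2 and 3.06 ± 0.22 in M0 naive, and Il7r at 5.28 ± 0.12 and 4.95 ± 0.31. The mean level of that list was 1.0 to 1.2 on the M2 arrays and 0.4 to 1.0 in M0 naive. The labels name IL-10 and no IL-4, while Retnla, Arg1, Pdcd1lg2 and Ccl24 belong to the IL-4 type set; no test between M2 and M0 naive was made here. The mean level of the alternative activation list was 4.61 to 4.83 on the M2 arrays, -0.14 to 0.51 in TAM naive and between -1.03 and 0.02 on the 16 other arrays.

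**Figure D3:**
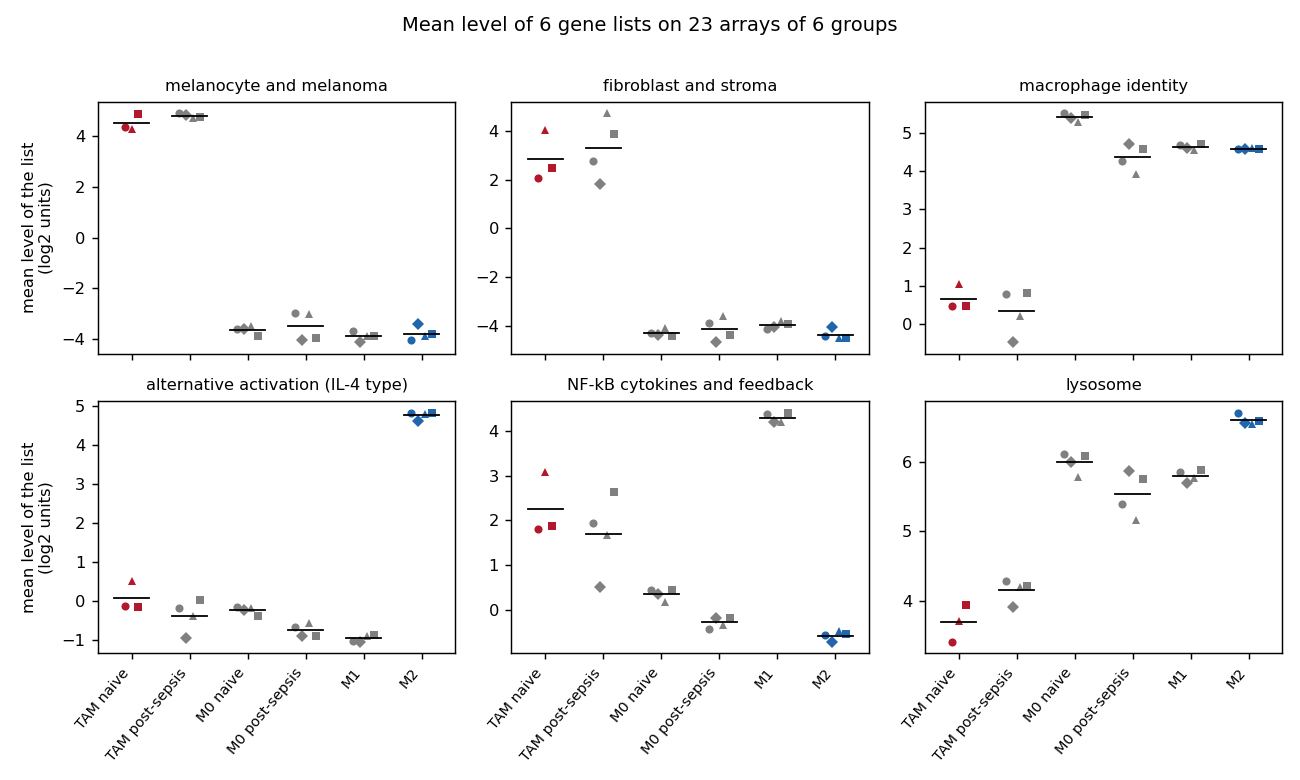
Mean level (vertical axis, log2 units) of the genes of 6 lists on each of 23 arrays in 6 groups, with symbols by replicate and bars for group means; TAM naive is red and M2 blue. The alternative activation list is high on the M2 arrays alone (4.61 to 4.83), the pigment and fibroblast lists in both tumour groups, and the macrophage identity list in the 4 culture groups.

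Both tumour groups shared the pigment signal. Dct was at 9.62 ± 0.14 in TAM naive (SD, n = 3) and at 9.39 ± 0.23 in tumour macrophages from mice that had survived sepsis (n = 4), and Csf1r at 2.55 ± 0.60 and 2.91 ± 0.93. In M0 naive, Dct was at -6.27 ± 0.35 and Csf1r at 8.88 ± 0.19. The mean level of the macrophage identity list was 0.46 to 1.05 in TAM naive, 4.57 to 4.61 in M2 and 5.28 to 5.52 in M0 naive.

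Several of the largest falls belonged to genes not named above, of which Atp6v0d2 was also a member of a gene list. Bex1, a small signalling adaptor, was above background on no TAM naive array, at 6.53 to 6.88 in M2, and so at least 1979-fold lower (adjusted p = 6.72e-07). Its level in M0 naive was -1.05 ± 0.28 (SD, n = 4). Atp6v0d2, a subunit of the lysosomal proton pump, fell by 9.04 ± 0.20, Ms4a7, a membrane protein of macrophages, by 8.76 ± 0.22, Npy (neuropeptide Y, above background on 1 of 3 TAM naive arrays) by 8.75 ± 0.34 and Cd84, a SLAM family receptor, by 7.90 ± 0.31. Tmem26 was at least 238-fold, Cd300lb at least 214-fold, Lipn, a lipase, at least 140.5-fold and Cd200r4 at least 132-fold lower. Ms4a7 and Npy were high in M0 naive too (8.66 ± 0.17 and 4.46 ± 0.43, against 8.34 ± 0.18 and 3.98 ± 0.15 in M2; SD, n = 4), whereas Tmem26 was at -5.79 ± 0.85 there and at 3.66 ± 0.19 in M2.

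Inflammatory genes ran the other way. Of 19 genes of NF-kB driven cytokines and feedback, 13 rose (median 2.30), and of 20 M1 activation genes 10 rose (median 1.32), against 19.1% of all genes. Cxcl1, a neutrophil attractant, was at 3.60, 6.19 and 4.52 in TAM naive and on no M2 array above background, at least 684-fold higher (adjusted p = 4.72e-06). Il6 was at 2.42, 4.93 and 2.75 and at least 258-fold higher. Il1b was at 4.29, 6.13 and 4.00 against -3.78 to -3.34 in M2, a difference of 8.43 ± 0.48 (adjusted p = 6.68e-06). Replicate 3 was the highest TAM naive array for Cxcl1, Il6, Il1b, Cxcl2 and Tnf, and the groups did not overlap for any of them.

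Further members gave smaller differences. Cxcl2 rose by 6.58 ± 0.43, Cxcl10, an interferon-induced chemokine, by 5.61 ± 0.27, Tnfsf9 (4-1BB ligand) by 4.06 ± 0.27, Tnf by 2.79 ± 0.22 and Il12b, a subunit of IL-12 above background on 1 of 4 M2 arrays, by 1.80 ± 0.30. The call of Tnf was lost with the excluded replicate 2 put back (1.83, adjusted p = 0.131). Ptgs2 (COX-2), picked after its values were seen, rose by 4.40. Irf5, a transcription factor linked to M1 polarization, fell by 4.91 ± 0.27, and Tnfaip2 and Icam1, picked after their values were seen, by 3.83 and 1.76. Nos2, the nitric oxide synthase of M1 cells, was not called (0.45, 1.97 and 0.80 against 1.80 to 2.04; -0.81, adjusted p = 0.104) and was lower without replicate 3 (-1.26, adjusted p = 0.00616). Without replicate 3, 8 of the 20 M1 genes were higher and 13 of the 19 NF-kB genes, and with the excluded replicate 2 put back 8 of the NF-kB genes. Of 17 neutrophil genes tested, 4 rose, 5 fell and 8 were not called. With TAM naive replicate 3 left out, the counts were 3 higher and 8 lower. Il1r2 (above background on 3 of 4 M2 arrays) and Retnlg rose by 6.18 and 3.95 and Ly6g (picked after its values were seen) at least 7.91-fold. Mmp8 and Ngp (above background on 1 of 3 TAM naive arrays) fell by 5.32 and 4.40. The sign of that list's median (-0.51) changed within 2 of the slides or other settings. The mean of the list was 1.18 in replicate 3 and -0.32 and -0.60 in replicates 1 and 4, against 0.10 to 0.39 in M2, the summed level was 9.0 to 10.01 against 8.10 to 9.31, and the part of neutrophils in the cytokine values was not tested.

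**Figure D4:**
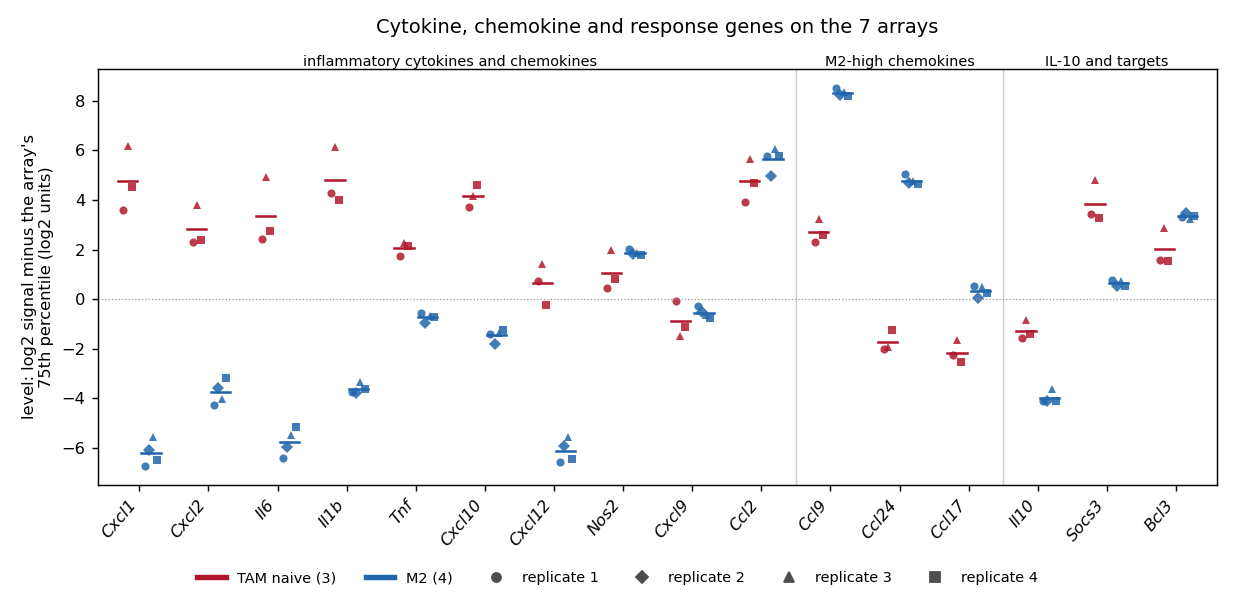
Level (vertical axis, log2 signal minus the array's 75th percentile) of 16 cytokine, chemokine and response genes on the 3 TAM naive (red) and 4 M2 arrays (blue); symbols give the replicate and bars the group mean. Cxcl1, Il6 and Il1b are high in TAM naive and highest in replicate 3, Ccl9 and Ccl24 are high in M2, and Nos2, Cxcl9 and Ccl2 overlap.

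Chemokines changed in both directions, with 14 of 31 genes of ligands and receptors higher and 11 lower (median 0.41; without replicate 3, 13 in each direction). The sign of that median changed within 2 of the slides or other settings. Cxcl12, a stromal chemokine, was at least 38.9-fold higher (0.72, 1.41 and -0.22 in TAM naive). Its receptor gene Cxcr4 was not called (-0.27, adjusted p = 0.588), and was lower without replicate 3 (-0.74, adjusted p = 0.0496). Ccl9 fell by 5.61 ± 0.26 and Ccl17 by 2.48 ± 0.27, and Ccl22 was at least 4.35-fold lower. Ccl2, the main monocyte attractant, overlapped between the groups (3.92, 5.67 and 4.68 against 4.96 to 6.04; -0.89, adjusted p = 0.138), was lower without replicate 3 (-1.34, adjusted p = 0.0355) and lower with the replicate block (-1.11, adjusted p = 0.0204). Cxcl9 was not called (-0.34, adjusted p = 0.459) and was lower without replicate 1 (-0.75, adjusted p = 0.0475). It had 2 probes, with differences of -1.99 and -0.34, and 1 of them was called lower in a fit of all probes.

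Antigen presentation was lower throughout for class I. All 15 MHC class I genes fell (median -3.04), among them Tapbp (tapasin, which loads peptides) by 3.92 ± 0.23, H2-T23 by 3.85 ± 0.26, H2-Q7 by 3.71 ± 0.24 and Psmb10, a subunit of the immunoproteasome, by 3.45 ± 0.23. The H2 genes belong to a family of close copies, so their signals may be shared. Of 10 class II genes tested, 5 fell, 2 rose and 3 were not called. H2-Ab1 and H2-Eb1, class II chains picked after their values were seen, overlapped between the groups: H2-Ab1 was at 5.92, 7.75 and 6.61 in TAM naive and at 7.15 to 7.26 in M2 (-0.45, adjusted p = 0.388; without replicate 3, -0.94, adjusted p = 0.0335), and H2-Eb1 differed by -0.04 (adjusted p = 0.944). Cd74 (the invariant chain) fell by 2.31 ± 0.42, H2-Aa by 1.5 ± 0.32 (not called with the excluded replicate 2 put back, -2.44, adjusted p = 0.0607), H2-DMa by 3.85 ± 0.37 and Ctss (cathepsin S) by 5.73 ± 0.33, whereas H2-Oa (above background on 3 of 4 M2 arrays) and H2-Ob, which B cells express, rose by 3.74 ± 0.60 and 2.24 ± 0.40. Replicate 3 was highest for both (1.84 and 1.52), as it was for Cd79a, and the part of B cells in these values was not tested. Of 15 dendritic cell genes tested, 9 rose, 4 fell and 2 were not called (median 0.99). Batf3 and Itgax (CD11c), which dendritic cells also use, fell by 4.80 and 6.61, while Fscn1 (fascin) rose by 4.42 and Cd209a (DC-SIGN) at least 20.7-fold.

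Of 16 checkpoint and tolerance genes tested, 11 fell (median -2.82). Cd200r1, an inhibitory receptor, was at least 273-fold lower. Ptger2, a prostaglandin E2 receptor, fell by 5.93 ± 0.27, Pdcd1lg2 by 5.38 ± 0.26, Tgfb1 by 3.90 ± 0.21 and Cd274 (PD-L1) by 3.05 ± 0.40. Cd274 was at 1.51, 2.88 and 1.07 in TAM naive and between 4.76 and 5.04 in M2. Nt5e (CD73, picked after its values were seen, above background on 1 of 4 M2 arrays) rose by 3.47. Type I interferon response genes were mixed: of 27, 11 fell, those with the smallest adjusted p being Gbp2 (-4.0), Usp18 (-3.23), Bst2 (-2.94) and Oas1a (-1.98), and Oasl1 and Mx2, picked after their values were seen, rose by 2.51 and 2.00.

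Lysosomal genes fell together, 23 of 25 with a median of -3.10. Ctsl (cathepsin L) was at 4.65, 5.36 and 5.01 in TAM naive and between 9.16 and 9.56 in M2, a difference of -4.45 ± 0.24 (adjusted p = 4.97e-06). Ctsa fell by 3.94 ± 0.21 and Lgmn (legumain) by 3.61 ± 0.20. Genes for lipid handling fell in 17 of 24 cases (median -2.60): Pparg, a lipid-sensing transcription factor, by 4.86 ± 0.23, Lipa, the lysosomal lipase, by 4.63 ± 0.26 and Abcg1, a cholesterol exporter, by 5.28 ± 0.30. Iron genes fell in 12 of 17 cases (median -1.51), with Blvrb (biliverdin reductase) at -5.53, Tfrc (the transferrin receptor) at -4.50, Slc11a1 at -4.35 and the iron exporter Slc40a1 at -3.31. Of 21 cholesterol synthesis genes 10 fell (median -0.66), and 6 without replicate 3: Sc5d by 1.46, Mvd by 1.4, Lss by 2.47 and Srebf2, their transcription factor, by 5.76 with its brightest probe but by 2.66 over the median of its probes (adjusted p = 0.1). Oxidative phosphorylation genes had a median of -0.05, whose sign changed within 5 of the slides or other settings, and 16 of 24 were not called, 4 rose and 4 fell. The 4 with the smallest adjusted p were Ndufa4, Cycs and Ndufa9, higher by 1.58, 1.16 and 1.03, and Ndufa1, lower by 1.16; Cycs and Ndufa9 were no longer called after median centring (0.71, adjusted p = 0.105, and 0.58, adjusted p = 0.156), nor were these 3 higher genes with the excluded replicate 2 put back (adjusted p = 0.388 to 0.568).

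Hypoxia and glycolysis genes rose in 23 of 27 cases (median 1.52). Mgarp, a mitochondrial protein induced by low oxygen, was at 3.18, 3.09 and 3.67 in TAM naive and at least 249-fold higher than in M2. P4ha2, which hydroxylates collagen, rose by 4.29 ± 0.26, Car9 (carbonic anhydrase IX) by 3.34 ± 0.21 and Bnip3, a mitophagy receptor, by 3.02 ± 0.23. Cell cycle genes rose in 21 of 25 cases (median 1.84): Rrm2, a subunit of ribonucleotide reductase, by 3.77 ± 0.21, Mcm2, a replication helicase subunit, by 3.52 ± 0.26, Bub1, a mitotic kinase, by 3.16 ± 0.25, Cdc20 by 2.66 ± 0.22 and Mki67 by 2.17 ± 0.22. Pcna, picked after its values were seen, fell by 1.34. With the excluded replicate 2 put back, 7 of the hypoxia genes and 5 of the cell cycle genes were called higher; the calls of Mcm2 (2.08, adjusted p = 0.207), Bub1 (2.21, adjusted p = 0.0785) and Mki67 (1.17, adjusted p = 0.325) were lost. Pigment cell genes were also higher, with a summed level of 10.80 to 11.21 on the TAM naive arrays and 4.74 to 4.98 on the M2 arrays (log2 of the summed signals of 16 genes, relative to the 75th percentile). Their part in the hypoxia and cell cycle values was not tested. The mean level of the hypoxia list was 3.9 to 4.4 in TAM naive, 4.1 to 4.5 in tumour macrophages after sepsis and 2.1 to 2.3 in M2. It was 4.8 to 5.0 in M1 cultures, 1.9 to 2.4 in M0 naive and 3.4 to 4.0 in marrow macrophages of mice after sepsis. In the same order of groups, the cell cycle means were 2.5 to 3.2, 3.2 to 3.8, 0.8 to 1.1, -1.5 to -1.4, 1.2 to 1.9 and 3.1 to 3.8. The pigment means were 4.3 to 4.9, 4.7 to 4.9, -4.0 to -3.4, -4.1 to -3.7, -3.9 to -3.5 and -4.1 to -3.0.

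Immediate early and stress genes added to the difference. Of 20 immediate early and heat shock genes, 14 rose (median 1.5): Nr4a1, an early response transcription factor, was at 5.67, 6.90 and 6.00 in TAM naive and between -1.03 and -0.43 in M2 (6.99 ± 0.32; adjusted p = 2.67e-06). Fosb rose by 5.14 ± 0.46 and Hspa1a (HSP70) by 4.86 ± 0.36, while Egr2, picked after its values were seen, fell by 4.10. With the excluded replicate 2 put back, 5 of the list were called higher. In the amino acid and unfolded protein stress list the ATF4 target genes Slc7a5, Chac1 and Trib3 rose by 3.96 ± 0.20, 3.58 ± 0.23 and 2.73 ± 0.26, and Atf3 fell by 2.96 ± 0.23, with 10 of 20 genes higher and 7 lower and a median (0.06) whose sign changed within 9 of the slides or other settings. Slc7a5 had 2 probes, with differences of 3.96 and 0.60, and 1 of them was not called in a fit of all probes.

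Matrix and growth factor genes split by product. Adamts1, a matrix protease, rose by 7.48 ± 0.22 and Sparc, a collagen-binding protein, by 8.54 ± 0.49, whereas Mmp12, Mmp13 and Mmp8 fell by 8.03, 5.14 and 5.32. In all, 12 of 24 genes rose and 10 fell, with a median (0.31) whose sign changed in 1 of the slides or other settings. Of 22 genes of TGF-beta, BMP and activin signalling, 12 rose (median 2.14): Fst (follistatin) at least 43.1-fold, Id1, above background on 2 of 4 M2 arrays, by 4.57 ± 0.35 and Tgfb3 by 3.18 ± 0.29. Vegfc and Angpt2, growth factors of lymphatic and blood vessels, rose by 5.15 ± 0.27 and 3.71 ± 0.22 (Angpt2 not with the excluded replicate 2 put back, 2.37, adjusted p = 0.134), and Plxdc1 fell by 4.72 ± 0.20; 7 of the 21 growth factor and angiogenesis genes rose and 7 fell, with a median (0.13) whose sign changed within 6 of the slides or other settings. Summed levels in TAM naive and M2 were 8.77 to 10 against 9.11 to 9.45 for the matrix list. They were 5.87 to 6.62 against 6.17 to 6.58 for the TGF-beta list and 5.36 to 6.39 against 8.04 to 8.22 for the growth factor list. Fibroblast genes had a summed level of 7.92 to 9.95 on the TAM naive arrays and 0.89 to 1.53 on the M2 arrays. Of these 17 genes, 8 were above background on no M2 array. The part of fibroblast genes in the matrix values was not tested.

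**Figure D5:**
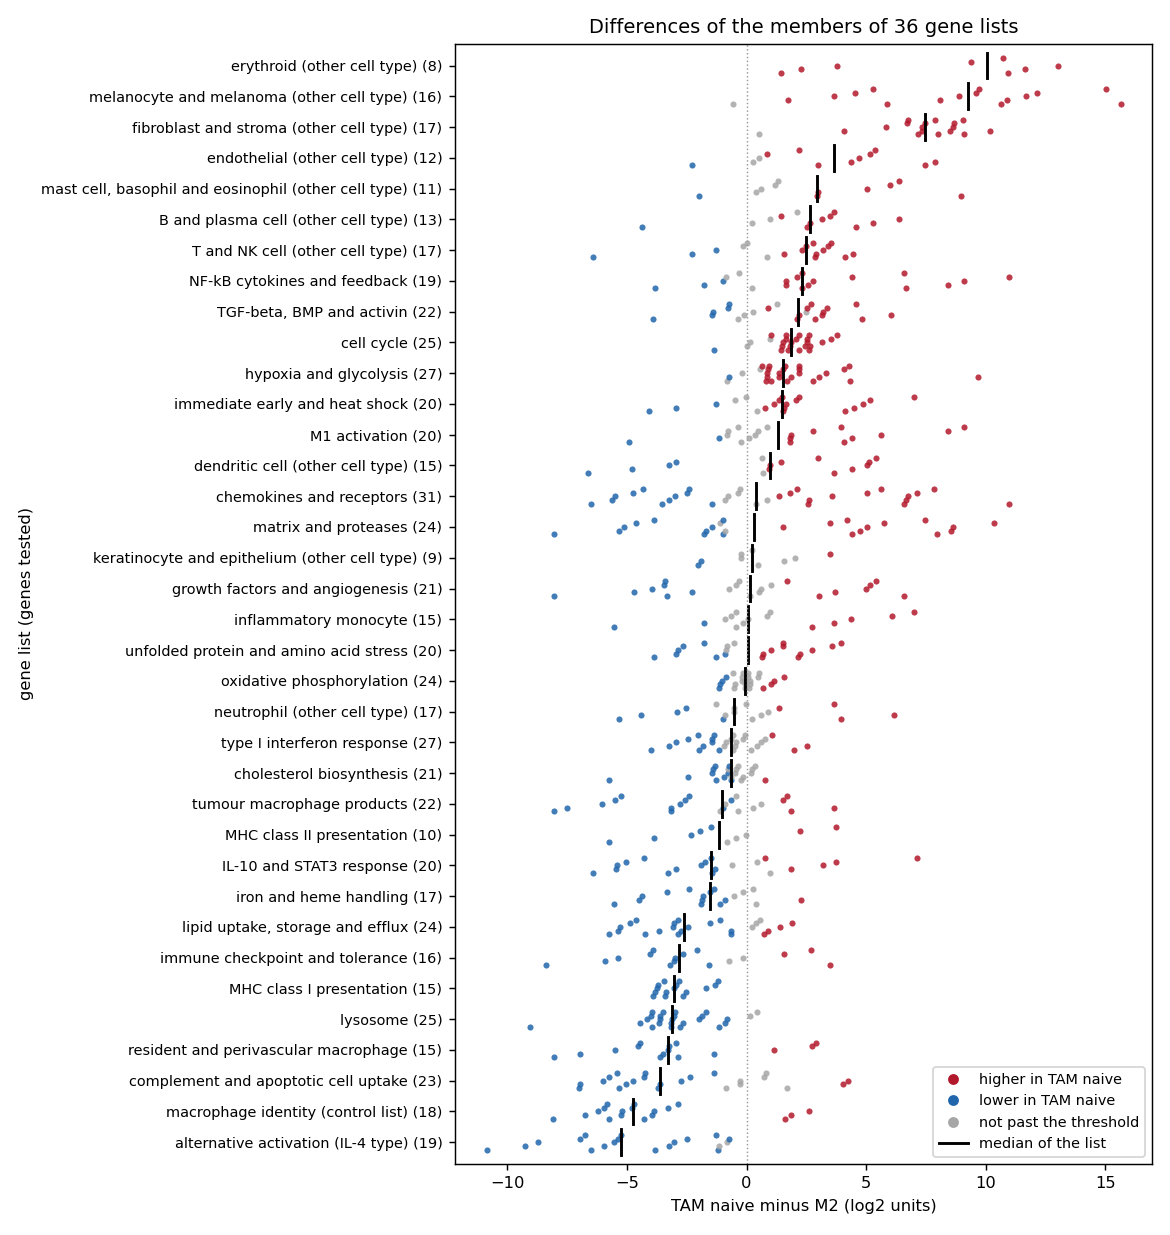
Difference TAM naive minus M2 (horizontal axis, log2 units) of each tested member of 36 gene lists (number tested in brackets), coloured by whether it was called higher, called lower or not called; black bars are list medians. Among members that passed the signal filter, the erythroid, pigment and fibroblast lists have the highest medians (10.04, 9.24 and 7.47). The alternative activation and macrophage identity lists have the lowest (-5.26 and -4.75). With no filter the erythroid median was 3.01.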

How the data were processed

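Labelled Cy3 RNA of each sample was read on a mouse Agilent 1-colour array. Per the file headers the scanner files are output of Feature Extraction 10.7.3.1, whereas the submitters' processing notes name Agilent Feature Extraction 12.5. The deposited processed signal is an intensity on a linear scale, already background-corrected per the file headers, and the flags for spots above background, saturated or non-uniform are deposited as other codes. The authors' value table, taken to be log2 per its values, was not used: 22 of its 24 columns matched the scanner file of another sample best. Which source carries the right labels cannot be settled from the files, and all groups here rest on the scanner files' records.

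From the intensities, log2 of the processed signal minus the 75th percentile of the array was computed over non-control spots, with non-uniform spots dropped. Probes above background on 3 or more arrays of a group were kept, and the kept probe with the highest mean stood for a gene (29776 genes; symbols brought up to date with the RefSeq table of GRCm38.p6). TAM naive minus M2 was fitted on the 7 arrays with lmFit and eBayes of limma 3.58.1 in R 4.3.3, and called at an adjusted p (Benjamini-Hochberg) of 0.05; every adjusted p in the text is from that test unless another setting is named. At an unadjusted p under 0.05, 14793 genes passed. Arrays number 3 and 4, which limits the precision, and the labels do not tie each sample to a mouse, so the p-values measure the spread between these samples.

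The genes named were the 10 with the largest and the 10 with the lowest difference measured in both groups, the 6 in each direction with the largest lower bound, up to 4 called members of each of 36 lists with the smallest adjusted p, and a list of marker genes given whatever their result; others are said to be picked after their values were seen. Not every gene that this rule names is reported here. The members and lists were chosen with earlier results of these data known. Replicate numbers 1, 3 and 4 are shared by the groups. Deviations of same-numbered samples correlated at 0.356, 0.145 and 0.334, but only 1 of the 3 TAM naive arrays correlated best with its own number. The arrays of replicate 1 also shared slide 3. Neither these values nor the labels establish a pairing. The main fit therefore used none, and the replicate number was a block in an alternative only. Alternatives were quantile and median scaling, normexp background, other filters, all probes, slide and replicate blocks, all 23 arrays, array weights, an intensity trend, leaving out each replicate, and, added after seeing the data, list counts without TAM naive replicate 3 or with replicate 2 put back.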

Additional observations from a re-analysis of the deposited data

Results flagged for a closer look

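In groups of 4 arrays, a value whose gap to the nearest other exceeded Dixon's 95% critical value, as a share of the range, stood apart. Of 160 named genes in M2, 8 had such an array (5%, where chance gives about 5%), as did 2 of 36 list means. M2 replicate 2 was the array apart for Bub1 (-1.99, the others -1.39 to -1.27), Chil4 (4.05, the others 4.68 to 4.79), Slc7a5 (-1.39, the others at -1.46), the mean of the immediate early and heat shock list (1.29, the others 1.46 to 1.48) and the mean of the tumour macrophage product list (3.63, the others 3.94 to 4.00). M2 replicate 3 was apart for Col1a2 (-1.22, the others -0.66 to -0.57), Ctsl (9.16, the others 9.53 to 9.56) and Fn1 (6.13, the others 6.54 to 6.56). Abcg1 was highest in M2 replicate 4 (6.27, the others 5.96 to 5.97) and Ndufa9 in M2 replicate 1 (3.84, the others 3.34 to 3.42). For the called genes among them, the distance of the array from its group was smaller than the difference between TAM naive and M2. TAM naive has 3 arrays and was not examined in this way.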

How the results depend on the processing

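Over the alternatives with each replicate left out in turn, 9380 to 12022 genes were called, 4399 to 6293 higher and 4872 to 6358 lower. Median scaling called 3586 genes higher (29.7% of its calls) and 8495 lower. Putting TAM naive replicate 2 back called 6296, with 3192 higher and 3104 lower, and 14 named genes lost their call: Ndufa4, Cycs, Ndufa9, Mcm2, Bub1, Mki67, Angpt2, Tnf, Vegfa, Thbs1, Apoe, H2-Aa, Cd14 and Mitf. With the replicate number as a block, 14557 genes were called (8437 higher, 58%). Among the named genes this setting changed the calls of Apoe, Ccl2, Cd3e and Tgm2 and no other. Of 207 named genes, 193 were called, and all of these but Itgam kept their direction under the 23 alternatives. Over the median of all probes, Itgam turned to -1.14 and Trpm1 to 6.57. Median scaling also brought Nos2, Ccl2, Fn1, Trpm1, Tgm2 and Irf4 past the threshold, all lower. Without TAM naive replicate 3, 8 uncalled genes were called lower. Of 36 list medians, 28 kept their sign under all alternatives and within all slides. Their sizes were less stable where M2 signal was near background. With normexp background the median was 5.62 for the pigment list (9.24 in the main fit), 5.24 for the fibroblast list (7.47) and 1.67 for the endothelial list (3.67). Genes above background on no array of a group have only lower bounds, so their true differences are not measured.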
